A study of Mus musculus with 105 samples.

Results

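The cells described here are single cells of TX1072, a mouse embryonic stem cell line, captured 3 days after the withdrawal of 2i/Lif. A capture site was taken as a cell if it held at least 40000 UMIs (unique molecular identifiers, each counting 1 captured mRNA molecule) outside the ERCC spike-in sequences. Of the 400 sites of day 3, 302 met this rule, out of 1667 cells on 2000 sites over days 0, 1, 2, 3 and 4. The last 3 sites below the minimum held 39654, 37997 and 37057 UMIs, and the first 3 above it held 40028, 41308 and 42097. TX1072 is a female F1 line from a cross of C57BL6/J (B6) and Cast/EiJ (Cast), grown as 1 clone, in which a doxycycline-responsive promoter stands before Xist on the X from B6 and the transactivator rtTA sits in the Rosa26 locus. All groups used here carry these alleles. At day 0 cells were kept in medium with serum, Lif and the 2 inhibitors CT-99021 and PD0325901 (2i), and on days 1 to 4 they were in serum medium without 2i and Lif, on fibronectin.

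Each day was captured from a single culture on its own microfluidic chip, so that day, culture and chip cannot be told apart in the single cells. The 10 capture columns of a chip, which held between 26 and 35 of the day 3 cells each, show technical spread within that culture only. Site names are positions on the chip and occur on every day (400 of 400), but no site had the same counts as another. The depth of a day 3 cell ranged from 40028 to 221387 UMIs (median 123492), and a median of 6016 genes was detected per cell. The median share of mitochondrial UMIs was 3.03% and that of ERCC sequences 0.260%. Bulk RNA of TX1072 came from the same 5 days, in 3 replicates differentiated on different dates, at 19827011 to 39628784 counts per library. The bulk libraries were used for all tests, since cells of a culture are not replicates of a day.

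Withdrawal of 2i/Lif releases embryonic stem cells from naive pluripotency, the state of the preimplantation epiblast, into a formative state that resembles the epiblast after implantation. De novo DNA methyltransferases and Fgf5 are switched on in this state, and cells become able to respond to Wnt, Nodal and Fgf signals with genes of the primitive streak, where mesoderm and endoderm form. In female cells Xist RNA is also switched on, which coats and silences an X chromosome.

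Dnmt3b, Car4 and Enpp2, taken as markers of these cells, separated day 3 from day 0 but were not highest at day 3. Dnmt3b (chromosome 2, 153649450 to 153687730, mm10, plus strand), a de novo DNA methyltransferase, was at 1250 CPM (the UMIs of a gene, summed over cells, on the usual CPM scale of all UMIs outside ERCC rows; exact 95% Poisson interval 1239 to 1262) on day 3, against 179 on day 0, 666 on day 1, 1446 on day 2 and 536 on day 4. Car4 (chromosome 11, 84957786 to 84966044, plus strand), a membrane carbonic anhydrase, was at 0, 35.6, 168, 308 and 486 CPM on days 0 to 4. Enpp2 (chromosome 15, 54838901 to 54952892, minus strand), the secreted enzyme autotaxin, was at 0, 23.9, 185, 114 and 24.7 CPM. Car4 thus increased with each day, whereas Dnmt3b and Enpp2 had their highest level on day 2. For the 2 genes without a UMI on day 0, a count of 0 allows up to 0.0663 CPM, so that day 3 was at least 4644-fold higher for Car4 and at least 1722-fold higher for Enpp2. These intervals and limits cover counting error only.

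Across the capture columns of day 3, Dnmt3b ranged from 924 to 1398 CPM with a median of 1303, Car4 from 237 to 348 with a median of 317, and Enpp2 from 80.5 to 167 with a median of 109. Between cells the differences were far wider. A cell held between 0 and 479 Dnmt3b UMIs (median 120), between 0 and 224 Car4 UMIs (median 24) and between 0 and 110 Enpp2 UMIs (median 3). To compare shares of cells at one depth, each cell was thinned to 40000 UMIs. Dnmt3b was then detected in 98.0% of day 3 cells (exact Clopper-Pearson interval 95.7 to 99.3%), Car4 in 84.1% (79.5 to 88.0%) and Enpp2 in 56.0% (50.2 to 61.6%). Without thinning these shares were 98.7%, 88.1% and 61.6%. On day 0 Dnmt3b was detected in 92.3% of thinned cells, and the others in none of 325 cells, which allows a share of cells with a UMI of up to 0.923% (taken as 3 of the total, not as a Clopper-Pearson bound), not of cells that express the gene.

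**Figure D1:**
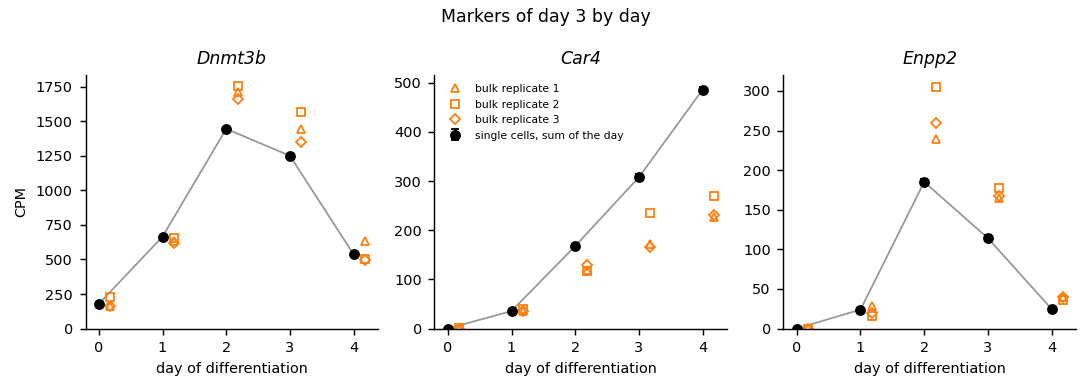
CPM of Dnmt3b, Car4 and Enpp2 on days 0 to 4. Black points give the summed UMIs of all single cells of a day with exact 95% Poisson intervals (mostly smaller than the point), and open orange symbols the 3 bulk replicates, drawn slightly to the right. In single cells Dnmt3b and Enpp2 are highest on day 2 and Car4 on day 4, and in bulk the Car4 replicates of days 3 and 4 overlap.

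In the bulk libraries the same genes were tested between days with edgeR (quasi-likelihood test, Benjamini-Hochberg adjusted p of 0.05 over 18871 genes). Car4 was at 119, 117 and 128 CPM in replicates 1 to 3 on day 2 and at 172, 235 and 165 on day 3. All day 3 libraries were above all day 2 libraries, and Car4 rose by 0.65 on the log2 scale (SE 0.14, edgeR adjusted p = 0.0025). Enpp2 was at 239, 306 and 260 CPM on day 2 and at 165, 178 and 167 on day 3, again without overlap, and fell by 0.66 (SE 0.16, edgeR adjusted p = 0.0051). Without replicate 3 this call was lost (edgeR adjusted p = 0.083). Dnmt3b was at 1712, 1759 and 1658 CPM on day 2 and at 1445, 1566 and 1350 on day 3. All day 3 libraries were below those of day 2, but the log2 difference of -0.23 did not pass the test (SE 0.13, edgeR adjusted p = 0.19). In bulk RNA, fewer cells that express a gene and less RNA of it per cell cannot be told apart.

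Genes of the contractile cytoskeleton were higher on day 3 than on day 2. The list used, called contractile below, holds genes of actin, myosin and their partners, known from smooth muscle and spreading cells. It also holds Thbs1, Cyr61, Ctgf and Ankrd1, so that its counts are not of the cytoskeleton alone. Of 14 genes in the list of smooth muscle and contractile genes, 12 had at least 10 CPM on day 2 or day 3. Of these, 6 reached it on day 3 alone (Acta2, Tagln, Cnn1, Myl9, Ankrd1 and Thbs1), so that they had to be higher there, and their number says nothing more. Of the 6 at 10 CPM or more on day 2, 5 were at least 2-fold higher in the single cells of day 3, beside 2.16% of the 8532 genes at that level on day 2. With the minimum met on either day, the background is 4.62% of 9082 genes at least 2-fold higher and 3.14% at least 2-fold lower. Among the 6, the exception was Cald1, an actin-binding regulator of contraction, which was 1.97-fold higher. Actg2 stayed below 10 CPM. The list summed to 539 CPM on day 2, 2423 on day 3 and 4047 on day 4.

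Tagln (chromosome 9, 45929619 to 45936058, minus strand), which encodes the actin-bundling protein transgelin, was the clearest example. It was at 3.62 CPM on day 2, 311 on day 3 and 617 on day 4 in the single cells, with capture columns of day 3 between 156 and 583 (median 303). It was detected in 5.15% of thinned cells on day 2 and in 59.9% (54.2 to 65.5%) on day 3, against 0.615% on day 0. In bulk it was at 2.32, 3.88 and 3.19 CPM on day 2, 192, 143 and 160 on day 3, and 402, 414 and 443 on day 4. The 3 days did not overlap, and the rise from day 2 to day 3 (log2 5.71, SE 0.20, edgeR adjusted p = 6.5e-12) passed the test. Tpm1, a tropomyosin that lies along actin filaments (chromosome 9, 67022590 to 67049406, minus strand), was present in nearly all cells but differed as clearly. It was at 143, 157 and 139 CPM in bulk on day 2 and at 741, 696 and 662 on day 3 (log2 2.26, SE 0.10, edgeR adjusted p = 2.9e-10).

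In bulk, 12 of the 13 list genes tested rose from day 2 to day 3 and none fell, with a median log2 difference of 2.62 beside 0.008 over all genes. This list and the others were chosen with earlier results of these data known. Their counts beside those of all genes are therefore descriptions and no independent test of a list. Over all 18871 genes, 13.8% rose (2607) and 12.9% fell (2426). These counts were 1319 and 1271 without replicate 3, and the lower count was 1496 without replicate 1. Thbs1, a matrix glycoprotein, went from 3.54, 3.74 and 4.66 CPM to 108, 71.0 and 77.7. Myl9, a regulatory light chain of myosin, went from 3.81, 3.66 and 3.19 CPM to 34.7, 33.2 and 30.5, and had 27.0, 27.8 and 32.2 on day 4, a difference that did not pass the test (log2 -0.18, edgeR adjusted p = 0.39). Cyr61 (Ccn1 in current nomenclature), a matrix-associated protein known as a target of Yap and Tead, went from 34.3, 41.0 and 43.2 CPM to 210, 192 and 192. For each of these genes the day 3 libraries lay above the day 2 libraries without overlap. Between days 3 and 4, 8 of the 13 rose and none fell, beside a background of 16% that rose and 11.9% that fell. With the replicate as a block 9 rose and 2 fell (Cyr61 and Ctgf), by 0.34 on the log2 scale for Cyr61 (edgeR adjusted p = 0.047).

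Acta2 and Ankrd1 were detected in few cells of day 3. Acta2, the smooth muscle actin, was at 0.343, 0.171 and 0.0545 CPM in bulk on day 2, at 9.50, 5.05 and 6.51 on day 3, and at 120, 83.0 and 123 on day 4. Ankrd1, a muscle ankyrin-repeat protein and target of Yap and Tead, was at 0.0761, 0.0571 and 0.0545 CPM on day 2 and at 5.20, 2.12 and 2.31 on day 3. Both rose (edgeR adjusted p = 3.3e-08 and 3.0e-07). In the single cells Acta2 had 525 UMIs in 28 of 302 cells, 29.9% of them in 1 cell, and Ankrd1 had 600 UMIs in 26 cells, 33.3% of them in 1 cell. The levels of both genes on day 3 therefore rest on a small number of cells.

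The promoters of Acta2 and Ankrd1 are shown because both genes were detected on day 3 in a minority of cells. A further reason is that their windows hold the letters GGAATG, the core of the motif bound by Tead factors (in capitals, searched on both strands). The windows run from 250 bases before to 50 after the annotated start (RefSeq, GRCm38.p6) and are written 5′ to 3′ on the strand of the gene, at chr19:34255324-34255623 (minus) and chr19:36119795-36120094 (minus).
Acta2: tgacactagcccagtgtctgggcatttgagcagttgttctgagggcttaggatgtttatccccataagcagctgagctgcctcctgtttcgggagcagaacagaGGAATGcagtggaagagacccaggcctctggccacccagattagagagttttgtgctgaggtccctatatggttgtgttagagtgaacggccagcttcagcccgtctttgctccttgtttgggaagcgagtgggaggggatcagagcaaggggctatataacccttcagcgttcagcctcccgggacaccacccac
Ankrd1: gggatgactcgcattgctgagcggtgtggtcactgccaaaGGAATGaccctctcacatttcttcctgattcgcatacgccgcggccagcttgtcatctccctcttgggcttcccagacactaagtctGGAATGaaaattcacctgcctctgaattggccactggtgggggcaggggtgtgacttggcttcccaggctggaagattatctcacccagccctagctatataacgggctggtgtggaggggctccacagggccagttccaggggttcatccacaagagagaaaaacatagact
Of 32851 windows of this length, 14.7% held GGAATG. Of the 14 contractile genes, 8 had a window in the table, and 4 of these held it (Acta2, Ankrd1, Cald1 and Tpm1). A gene was counted if any of its windows held the letters, as for Cald1, whose other window did not. This count by gene and the share of all windows are unlike units and cannot be set side by side. A match of these letters is a description of the sequence and no measured binding.

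The keratins Krt8 and Krt18, intermediate filament partners of simple epithelia, were the second group. They stand in the lists of trophoblast and of surface ectoderm, which share them. Krt8 (chromosome 15, 101996698 to 102004482, minus strand) was at 1.66, 2.27, 12.1, 154 and 529 CPM on days 0 to 4, and Krt18 (chromosome 15, 102028180 to 102032027, plus strand) at 8.53, 23.0, 71.5, 428 and 1076 CPM. In bulk, Krt8 was at 29.5, 34.0 and 22.1 CPM on day 2, 231, 166 and 155 on day 3, and 1030, 835 and 825 on day 4. Krt18 was at 41.5, 53.5 and 32.3 CPM on day 2, 253, 184 and 143 on day 3, and 975, 713 and 712 on day 4. Neither gene overlapped between days, and both rose from day 2 to day 3 (log2 2.69 with SE 0.23 and 2.19 with SE 0.21, edgeR adjusted p = 1.6e-07 and 7.8e-07). Both keratins have processed pseudogenes in the genome, and reads that match a copy equally well may be missing from these counts.

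The start regions of Krt8 and Krt18 are shown as the neighbouring pair that moved together, with the letters TATAAA (searched on both strands) in capitals. They lie at chr15:102004293-102004592 (minus strand) and chr15:102027966-102028265 (plus strand) in RefSeq, GRCm38.p6.
Krt8: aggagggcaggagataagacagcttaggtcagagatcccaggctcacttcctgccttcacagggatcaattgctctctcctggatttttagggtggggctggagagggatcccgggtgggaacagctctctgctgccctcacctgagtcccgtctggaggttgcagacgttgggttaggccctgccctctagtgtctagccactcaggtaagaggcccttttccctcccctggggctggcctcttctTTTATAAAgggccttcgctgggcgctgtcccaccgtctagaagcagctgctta
Krt18: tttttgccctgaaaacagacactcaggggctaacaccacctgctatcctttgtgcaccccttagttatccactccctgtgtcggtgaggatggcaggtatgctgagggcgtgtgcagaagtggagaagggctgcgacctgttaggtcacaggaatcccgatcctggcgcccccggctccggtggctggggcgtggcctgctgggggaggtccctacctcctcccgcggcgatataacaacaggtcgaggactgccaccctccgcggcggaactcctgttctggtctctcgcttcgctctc
The Krt8 window held TATAAA on both strands in overlapping letters, the Krt18 window did not hold it, and 13.6% of all windows did.

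Krt8 differed more between capture columns of day 3 than the markers did. Its levels were 281, 190, 107, 333, 147, 197, 20.2, 23.7, 82.1 and 165 CPM in columns 1 to 10. Columns 7 and 8 thus had less than the other columns, and column 4 had the highest level of both keratins. Krt18 ranged from 104 CPM in column 7 to 1021 in column 4 (median 379). Krt8 was detected in 46.7% of thinned cells (41.0 to 52.5%) against 3.08% on day 0 and 18.2% on day 2. Its thinned UMIs per cell had a median of 0, a 90th percentile of 14 and a maximum of 109. Of the other trophoblast genes in the single cells, Krt7 was at 33.4 CPM on day 3 against 5.30 on day 2. Krt7 thus reached 10 CPM on day 3 alone, and so did Grhl3 and Krt19 of the surface ectoderm list. Of the genes at 10 CPM or more on day 2, 2 of 6 trophoblast genes and 4 of 5 surface ectoderm genes were at least 2-fold higher on day 3, Cldn6 and Cldn7, claudins of tight junctions, among them, beside 2.16% of all such genes. In bulk, 8 of 11 trophoblast genes tested rose and 1 fell (Ascl2), and 6 of 11 surface ectoderm genes rose and 1 fell (Grhl2), beside 13.8% and 12.9% of all genes. With the replicate as a block, 8 of the 11 surface ectoderm genes rose and 1 fell. Krt8 and Krt18 count in both lists. Cdx2, a defining factor of trophoblast, was among those that rose, but only from 0.914, 0.457 and 0.791 CPM to 2.51, 0.978 and 1.42. It was at 7.03, 17.1 and 7.46 CPM on day 0 and was lower on day 3 than there (log2 -2.65, SE 0.38, edgeR adjusted p = 9.9e-06). Against day 0, 5 of the 11 trophoblast genes were higher and 4 lower on day 3, with a median log2 difference of -0.04, beside 28.1% and 27.9% of all genes.

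**Figure D2:**
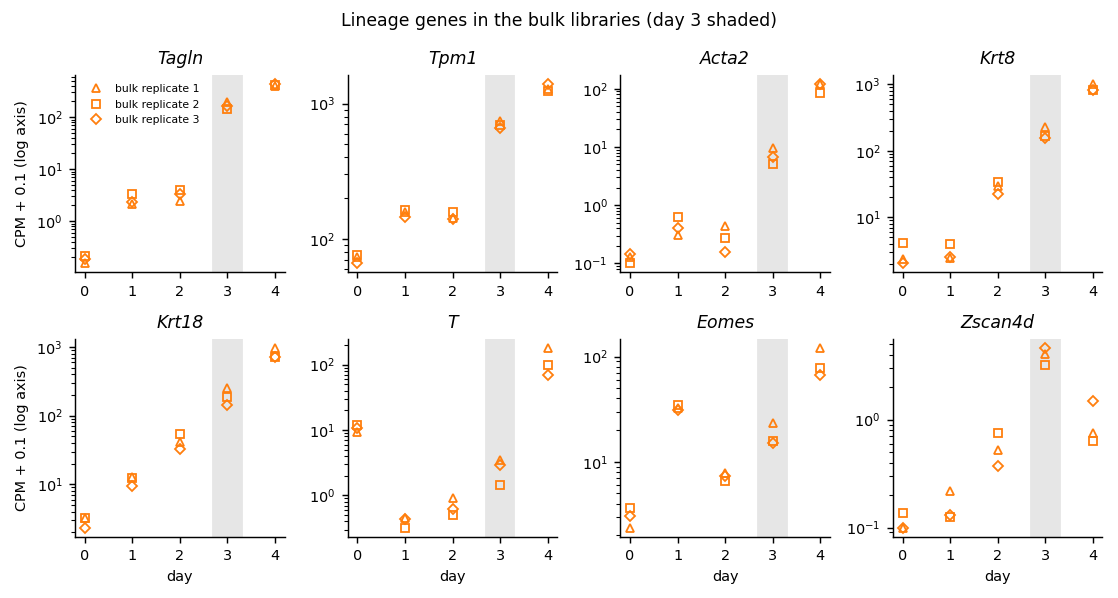
CPM of 8 genes in the 3 bulk replicates of each day, with 0.1 CPM added and a log axis, and day 3 shaded. Tagln, Tpm1, Acta2, Krt8 and Krt18 were higher on day 3 than on day 2 and higher again on day 4, T and Eomes followed mainly on day 4, and Zscan4d was highest on day 3.

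**Figure D3:**
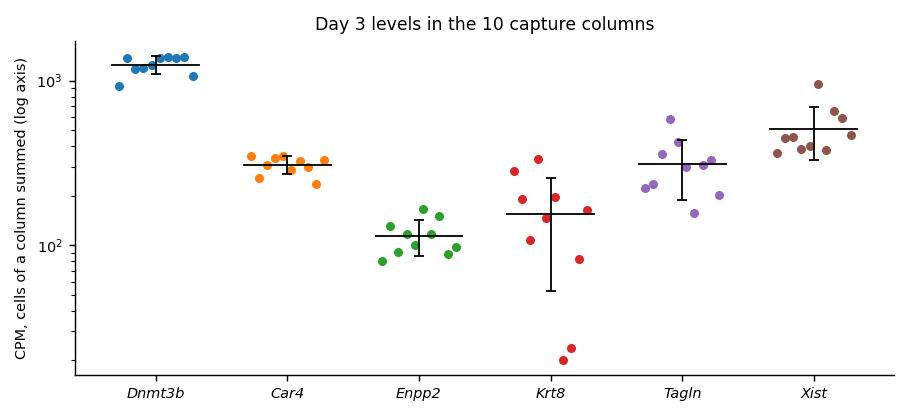
CPM of 6 genes in the 10 capture columns of day 3 on a log axis, with points in the order of columns 1 to 10 and bars giving the mean and SD over columns. Krt8 spread from 20.2 to 333 CPM, while Car4 stayed between 237 and 348.

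Genes of the primitive streak differed widely in level on day 3, and most rose from day 3 to day 4. Of 20 genes in the list, 18 were tested in bulk, and 7 rose from day 2 to day 3 while none fell, beside 13.8% and 12.9% of all genes. Between days 3 and 4, 15 of the 18 rose, beside 16%. Of the 20, 7 had at least 10 CPM in the single cells of day 3 and 7 were under 1 CPM. Tdgf1, a Nodal co-receptor that is also in the core pluripotency list, was at 511, 507 and 668 CPM on days 2 to 4 and was detected in 88.4% of thinned day 3 cells. Nodal, the ligand, was at 136, 158 and 161 CPM and in 80.5% of the cells. In bulk neither passed the test between days 2 and 3 (edgeR adjusted p = 0.19 for Tdgf1 and 0.13 for Nodal). T (chromosome 17, 8434423 to 8442496, plus strand), the Brachyury factor of the streak, was at 0.799, 0.40 and 0.518 CPM on day 2, 3.37, 1.36 and 2.78 on day 3, and 181, 98.4 and 70.3 on day 4. Both steps passed the test (log2 2.21 with SE 0.42, edgeR adjusted p = 0.00073, and log2 5.50 with SE 0.33, edgeR adjusted p = 1.0e-08). Eomes, a T-box factor of mesendoderm, rose from 7.73, 6.48 and 7.31 CPM to 23.4, 15.8 and 14.9 (edgeR adjusted p = 0.00014). Wnt3, the ligand that induces the streak, rose from 3.35, 2.77 and 3.11 CPM to 13.3, 6.74 and 11.2 (edgeR adjusted p = 9.6e-06). Fst, which encodes the activin inhibitor follistatin, rose from 13.7, 11.7 and 11.8 CPM to 41.9, 21.7 and 29.2 (edgeR adjusted p = 0.00052). For these 4 genes the day 3 libraries did not overlap those of day 2.

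The same 4 genes were detected in a minority of the single cells. T had 123 UMIs in 20 of 302 cells, spread over 8 of the 10 columns, and 10 of these cells held 5 or more. Its share of thinned cells, 4.97% (2.81 to 8.06%), was below the 8.00% of day 0, where T was also present, but above the 0.271% of day 2. Wnt3 was detected in 18.5% of thinned cells (14.3 to 23.4%) against 5.69% on day 2, Eomes in 20.5% (16.1 to 25.5%) against 9.76%, and Fst in 29.5% (24.4 to 35%) against 14.1%. On day 0 these shares were 0.923%, 2.77% and 6.15%. Mixl1 had 28 UMIs in 10 cells, Sp5 74 UMIs in 22 cells and Foxa2, a factor of definitive endoderm, 24 UMIs in 3 cells. In bulk, Mixl1 was at 0.825, 0.543 and 1.07 CPM on day 3 and at 35, 9.15 and 9.72 on day 4, and Foxa2 at 0.359, 0.163 and 0.126 and then at 28.9, 5.43 and 4.89. Foxa2, T, Mixl1, Sp5 and Cyp26a1 were the 5 largest increases of the bulk comparison of days 4 and 3 among those whose replicates did not overlap and whose mean count reached 100. In this comparison 3014 genes rose and 2237 fell. Without replicate 3 these counts were 1640 and 996, and without replicate 1 the lower count was 1264. Of the 14 streak genes with at least 10 CPM in the single cells of day 3 or 4, 7 reached it on day 4 alone and had to be higher there. Of the other 7, 4 were at least 2-fold higher on day 4 and none was lower, beside 3.76% of the 8713 genes at 10 CPM or more on day 3 that were higher. With the minimum met on either day, 6.99% of 9433 genes were at least 2-fold higher on day 4 and 2.93% at least 2-fold lower.

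Trh, a thyrotropin-releasing hormone precursor that stands in the endoderm list, differed between replicates. It was at 66.8, 11.7 and 10.1 CPM in replicates 1 to 3 on day 2 and at 172, 40.3 and 48.7 on day 3, where replicate 1, which came from the same cell population as the single cells, was highest on both days. The difference between days did not pass the test without a block (log2 1.57, SE 0.64, edgeR adjusted p = 0.078). Trh was higher on day 3 within each of the 3 replicates, and with the replicate as a block it passed (log2 1.69, SE 0.45, edgeR adjusted p = 0.0075), as it did between days 3 and 4 (log2 1.23, adjusted p = 0.037, against 0.18 without the block). In the single cells Trh had 1544 UMIs in 96 of 302 cells, with 11.5% of them in 1 cell. Of 22 mesoderm genes, 11 were under 1 CPM in the single cells and none of the 3 compared was 2-fold higher or lower than on day 2. In bulk, 5 of 17 rose and 1 fell from day 2 to day 3, beside 13.8% and 12.9% of all genes, and 8 of 17 rose and 3 fell from day 3 to day 4, beside 16% and 11.9%. Fibroblast genes summed to 30.6 CPM with 7 of 11 under 1 CPM, and Thy1, the highest of them, was at 10.7 CPM. Blood and endothelial genes summed to 16.4 CPM, with 5 of the 8 in the table under 1 CPM, 2 of them at 0, and Pecam1 highest at 12.7 CPM.

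The largest differences of single genes in bulk between days 2 and 3, among those whose replicates did not overlap and whose mean count reached 100, included contractile genes again. Tagln, Thbs1 and Myl9 led the increases, followed by Tinagl1, a matrix protein, and Anxa3, a membrane-binding annexin. Tinagl1 rose from 1.14, 1.17 and 0.709 CPM to 10.4, 8.37 and 8.18. The largest decreases were in 4930591A17Rik, Septin1, Mymx, Msln and Epas1. Epas1, a hypoxia-inducible factor subunit, fell from 58.7, 55.3 and 89.4 CPM to 8.32, 10.1 and 11 (log2 -2.79, SE 0.24, edgeR adjusted p = 1.7e-07). Septin1, a filament-forming GTPase, fell from 45.9, 51.9 and 51.6 CPM to 5.49, 7.45 and 5.18.

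In the Wnt list 8 of 22 genes tested rose and 3 fell, beside 13.8% and 12.9% of all genes, so that the share that fell was near the background. Among ligands Wnt6 rose with Wnt3, from 2.44, 2.71 and 2.45 CPM to 8.36, 3.91 and 6.35. Of the pathway's feedback targets, Axin2 rose from 8.72, 6.68 and 8.13 CPM to 18.4, 13.4 and 14.4 and Rnf43, Nkd1 and Nkd2 also rose, while Notum fell from 3.08, 1.51 and 1.58 to 0.789, 0.543 and 0.821. Lef1, a transcription factor of the pathway, fell from 77.2, 60.7 and 102 CPM to 27.9, 21.2 and 24.5.

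In the BMP list 7 of 20 rose and 3 fell, and again the share that fell was near the background of 12.9%. The ligand Bmp7 rose from 3.39, 2.94 and 2.54 CPM to 16.8, 17.1 and 17.8 (log2 2.55, edgeR adjusted p = 9.5e-08), and the receptors Bmpr1a and Bmpr2 and the signal transducers Smad1 and Smad5 rose as well. The target Id1 fell from 62.1, 58.0 and 65.5 CPM to 44.9, 22.3 and 23.6, and Id3 fell with it. In the Nodal list 5 of 17 rose, beside 13.8% of all genes, and 1 fell, the DNA-binding partner Foxh1, while the transducer Smad3 rose from 24.1, 21.5 and 22.5 CPM to 38.8, 38.6 and 41.4. In the FGF list 9 of 20 rose and 2 fell, the latter a share near the background of 12.9%. Fgf4, the ligand of pluripotent cells, fell from 364, 434 and 510 CPM to 154, 170 and 161. The feedback inhibitors Spry2, Spred1, Dusp4 and Dusp6 rose, Dusp4 with overlap of replicates. The related Spry1 (log2 0.36, edgeR adjusted p = 0.096), Spry4 (log2 -0.29, edgeR adjusted p = 0.34) and Spred2 (log2 -0.29, edgeR adjusted p = 0.39) did not pass the test.

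Of 15 neural genes tested, 7 rose and 1 fell, beside 13.8% and 12.9% of all genes. Nes, the intermediate filament of neural progenitors, rose from 24.7, 29.3 and 23.6 CPM to 112, 115 and 95.1 (log2 2.05, SE 0.12, edgeR adjusted p = 5.7e-09), and was at 41.7, 41.3 and 32.8 on day 0. Of 16 genes of extraembryonic endoderm, 9 rose and 2 fell, and the share that fell was near that of all genes. Among the 9, Lama1, a laminin chain, went from 6.47, 6.31 and 6.82 CPM to 17.1, 17.8 and 14.9. Sox7, a defining factor of that tissue, was at 0.502, 0.489 and 0.505 CPM on day 3. Of the genes of the epithelial and mesenchymal switch, 6 of 17 rose, and 2 fell (Zeb1 and Fn1), a share near the background as well.

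Naive pluripotency genes were mostly lower on day 3 than on day 0. Of 16 genes in bulk, 15 were lower on day 3 than on day 0 and none was higher, beside a background of 27.9% lower and 28.1% higher. In the single cells 14 of 16 were at least 2-fold lower on day 3 than on day 0 and none was higher, where 12.7% of 9563 genes were lower and 12.1% higher. Of the 14 that were still at 10 CPM or more on day 3, 13 were lower, beside 7.04% of all such genes. From day 2 to day 3, 3 rose and 5 fell, beside 13.8% and 12.9% of all genes, so that the share that rose was near the background. Nanog, a core factor of naive cells, was at 65.6, 45.3 and 54.3 CPM on day 2, 163, 122 and 108 on day 3, and 199, 225 and 244 on day 4. It rose between days 2 and 3 without overlap (log2 1.25, SE 0.17, edgeR adjusted p = 2.9e-05), and fell by 3.04 against day 0. Dppa3, a maternal factor that protects DNA methylation imprints, was at 14.8, 16.7 and 12.5 CPM on day 2, 41.7, 40.1 and 33.7 on day 3, and 15.5, 20.0 and 19.3 on day 4. It thus rose to day 3 (log2 1.39, SE 0.17, edgeR adjusted p = 1.3e-05) and fell again (log2 -1.08, edgeR adjusted p = 0.00017). The single cells had both genes higher on day 3 than on day 2, 2.51-fold for Nanog and 2.02-fold for Dppa3. Klf2, Nr0b1, Gbx2, Spp1 and Zfp42 fell from day 2 to day 3.

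Formative and primed epiblast genes were past their highest level in part. Of 16 in bulk, 15 were higher on day 3 than on day 0 and none was lower, beside 28.1% and 27.9% of all genes, while 4 rose from day 2 to day 3 (Car4, Fgf5, Dusp6, Sfrp2) and 5 fell (Dnmt3a, Enpp2, Lef1, Otx2, Pim2), beside 13.8% and 12.9%. Fgf5, the growth factor that marks the formative epiblast, rose from 57.3, 40.2 and 37.3 CPM to 114, 96.7 and 75 (log2 1.09, SE 0.19, edgeR adjusted p = 0.00037). Dnmt3a, the other de novo methyltransferase, fell from 1122, 1074 and 1192 CPM to 374, 422 and 393 (log2 -1.51, SE 0.10, edgeR adjusted p = 7.3e-09). The day 3 libraries of neither gene overlapped those of day 2. Of 11 DNA methylation genes, 6 fell (Dnmt3a, Dnmt3l, Tet1, Tet2, Uhrf1, Zfp57) and none rose. Of 18 S phase genes 8 fell and 1 rose, both lists against the same background. With the replicate as a block, 8 of the DNA methylation genes and 9 of the S phase genes fell. The 17 genes of G2 and M phase had a median log2 difference of -0.10, of which none passed the test and 4 fell with the replicate as a block (Aurka, Aurkb, Top2a, Ube2c). Of the immediate early genes, 6 rose in bulk and were also at least 2-fold higher in the single cells, Fos, Fosb, Jun, Junb, Egr1 and Atf3, of which Fos, Fosb, Junb and Egr1 reached 10 CPM on day 3 alone. In bulk, 7 of the 15 genes of the stress list rose and 1 fell, beside 13.8% and 12.9%. Among 13 compared in the single cells, those 6 were the ones at least 2-fold higher on day 3, and 3 were at least 2-fold lower, Trib3 (from 50.3 to 18.8 CPM), Chac1 (from 47.5 to 9.57 CPM) and Gdf15 (from 10.4 to 2.45 CPM), beside 4.62% higher and 3.14% lower of all genes. Of these 3, Gdf15 also fell in bulk (log2 -0.89, edgeR adjusted p = 0.021), whereas Trib3 (log2 -0.16, edgeR adjusted p = 0.75) and Chac1 (log2 0.27, edgeR adjusted p = 0.75) did not pass the test. Only Trib3 was at 10 CPM or more on both days. The immediate early genes are also known to be induced by handling of cells, and their part in the other results was not tested.

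Transcripts known from 2-cell-like cells, a rare state of embryonic stem cell cultures, were low throughout. All 9 genes of that list rose in bulk from day 2 to day 3, beside 13.8% of all genes, and 7 of the 9 fell from day 3 to day 4, beside 11.9%. Zscan4d was at 0.419, 0.657 and 0.273 CPM on day 2, 3.98, 3.10 and 4.55 on day 3, and 0.649, 0.540 and 1.38 on day 4 (log2 3.11 for day 3 against day 2, SE 0.39, edgeR adjusted p = 1.5e-05). Its day 3 libraries lay above those of all other days. In the single cells the 9 genes had 64 UMIs together, in 14 of 302 cells, and 1 cell held 22 of them (34.4%). On the other days they had 2, 7, 27 and 22 UMIs (days 0, 1, 2 and 4), in 2, 4, 10 and 10 cells. Zscan4c, Zscan4d and Zscan4f are near-identical copies, so that the split of reads between them is uncertain.

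Co-expression between cells was described by Spearman's rho across the 302 cells, on counts thinned to 40000 UMIs. Of the list genes, 220 were detected in at least 10% of thinned cells, and their 24090 pairs had a median rho of 0.0067. At least 0.3 was reached by 209 pairs and -0.3 or less by 71. These cells share a culture and a chip, and a rho is given without a p. No list gene had a rho with the unthinned total beyond 0.257 in either direction, and ranking within capture columns moved no pair by more than 0.104.

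The highest pairs fell into 3 groups of genes. The first was formative, with Dnmt3b and the kinase gene Pim2 at a rho of 0.69, Dnmt3a and Dnmt3b at 0.52, and Dnmt3a and Pim2 at 0.51. On day 2 these pairs had 0.65, 0.57 and 0.46, and on day 4 0.55, 0.21 and 0.32. The second was contractile, with Tagln and Tpm1 at 0.68, Cald1 and Tpm1 at 0.60, Cnn2 and Tpm1 at 0.55, Cald1 and Tagln at 0.54, Cnn2 and Tagln at 0.51, and Thbs1 and Tpm1 at 0.50. On day 2 these 6 pairs had 0.15, 0.23, 0.15, 0.12, 0.09 and 0.06, and on day 4 0.67, 0.62, 0.58, 0.54, 0.54 and 0.33. Tagln, Cnn2 and Thbs1 were at only 3.62, 19.1 and 0.492 CPM on day 2, and the part of these levels in the lower rho was not tested. The third was a single pair, Dppa3 of the naive list and Dppa5a of the core pluripotency list, at 0.61 on day 3. This pair had 0.28 on day 2 and 0.44 on day 4.

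The lowest pairs joined a formative gene with Dppa5a or with a gene of the naive list. Dppa5a and Pim2 had a rho of -0.52, Dnmt3b and Dppa5a -0.50, Esrrb and Pim2 -0.49, Dnmt3b and Fbxo15 -0.48, and Dppa3 and Pim2 -0.48. On day 2 these pairs had -0.55, -0.48, -0.42, -0.40 and -0.31, so that the first was lower there than on day 3. On day 4 they were closer to 0, at -0.28, -0.28, -0.11, -0.14 and -0.19. Of the 209 pairs at 0.3 or more on day 3, 52 were also at 0.3 or more on day 2 and 108 on day 4.

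Car4 and Enpp2, although both belong to the epiblast list, had different neighbours among the 9713 genes detected in at least 10% of cells. For Car4 these were Lrp2, an endocytic receptor (rho 0.45), Slc2a1, a glucose transporter (0.35), Lpp (0.33), Pdlim7 (0.32) and Rras2 (0.32), and at the other end Tdh (-0.40), the threonine dehydrogenase of naive cells, Rfx2 (-0.29), Esrrb (-0.28), Socs2 (-0.28) and Alg13 (-0.27). For Enpp2 they were Dnmt3b (0.38), Pim2 (0.37), Ldha (0.36), Meg3 (0.36) and Dnmt3a (0.34), and at the other end Bex3 (-0.40), Tmsb4x (-0.38), Ckb (-0.37) and Tceal9 (-0.36). Dnmt3b itself went with Pim2, Ldha (0.65), a lactate dehydrogenase subunit, G3bp2 (0.55), Sema6a (0.55) and Mdk (0.53), and against Bex3 (-0.58), Dppa5a, Ckb (-0.50), Fabp3 (-0.49) and Bex1 (-0.48). T was under 10% of thinned cells and was not ranked. Krt8, which was chosen after its values were seen, had a rho of 0.50 with Krt18 on day 3, 0.16 on day 2 and 0.79 on day 4.

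**Figure D4:**
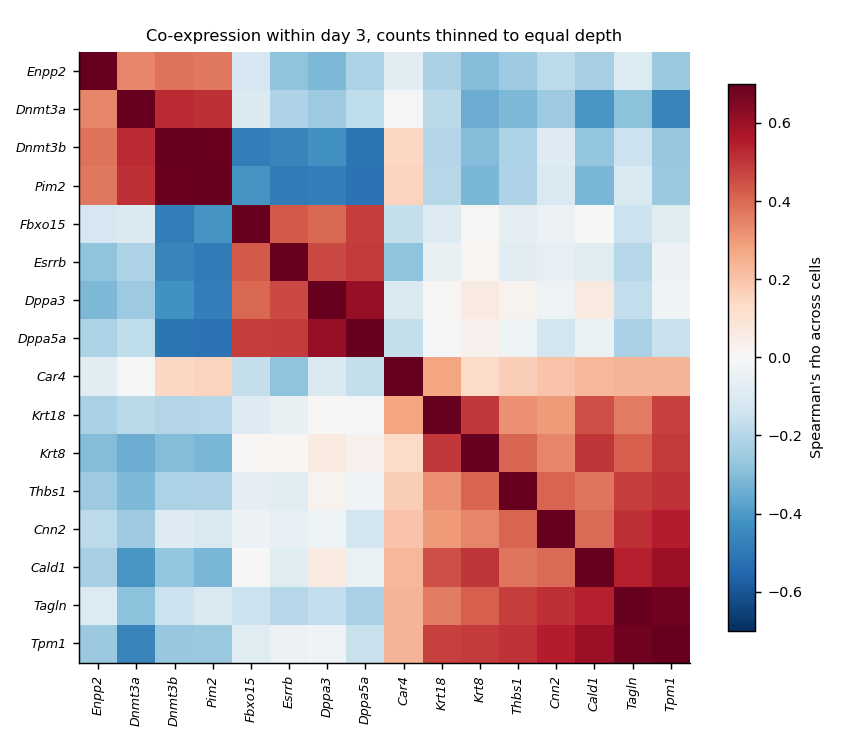
Spearman's rho across the 302 cells of day 3 between the genes of the 10 highest and 5 lowest pairs, with Krt8, Krt18, Car4 and Enpp2 added, ordered by average linkage (red positive, blue negative, colours saturate at 0.7 in either direction). A formative block (Dnmt3a, Dnmt3b, Pim2), a block of naive genes (Fbxo15, Esrrb, Dppa3) with Dppa5a, and a contractile and keratin block are seen. Car4 stands between blocks.

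Leiden clustering of the day 3 cells at a resolution of 0.5 gave 3 clusters, whose defining genes are a description and were not tested. Cluster 1 held 207 cells (68.5%). Its 50 leading genes included 6 markers of the formative and primed epiblast, Dnmt3a, Fgf5, Lef1, Pim2, Sox3 and Enpp2, and it is called formative epiblast-like. Its first gene was Trh of the endoderm list, and Egr1, an immediate early gene, and Fst of the streak list were also among its 10 first genes, with Sox11 of the neural list further down. Cluster 3 held 28 cells (9.27%) and 9 naive markers among its leading genes, Esrrb, Klf2, Tfcp2l1, Prdm14, Nr0b1, Tcl1, Dppa3, Tdh and Fbxo15, and is called naive-like. Cluster 2 held 67 cells (22.2%) and was led by Krt8, Cryab, Plac1, Ankrd1, 3830417A13Rik and Krt18, detected in 79.1%, 47.8%, 7.46%, 23.9%, 56.7% and 94.0% of its thinned cells. With 3 markers each of trophoblast, surface ectoderm and contractile genes, it was given no cell type name.

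The 3 clusters were found in every capture column, with at least 16, 4 and 1 cells, with median depths of 124816, 129257 and 110291 UMIs per cell. Krt8 was at 25.6, 574 and 25.4 CPM in clusters 1, 2 and 3, and Tagln at 157, 870 and 10.5. Enpp2 was at 153, 36.5 and 20.9 CPM, while Car4 was at 300, 428 and 45.0. Car4 thus had its highest level in the keratin-led cluster and Enpp2 in the formative one. T was seen in 17, 3 and 0 cells of the clusters, Wnt3 in 57, 14 and 0, and Fst in 92, 14 and 0, so that no naive-like cell held a UMI of these 3 genes. Not all genes of these lists were at 0 there, as Eomes was seen in 63, 7 and 9 cells and Trh in 78, 7 and 11. Taken in the same way as 3 of the total, a count of 0 of 28 allows a share of cells with a UMI of up to 10.7% and sets no limit on the share that express the gene. The 257 cells of the stricter list of kept sites were also clustered alone. There the best match of cluster 2 shared 28 of its 56 cells. Those of clusters 1 and 3 shared 172 of 176 and 24 of 25. At a resolution of 1.0 there were 7 clusters. The best match of cluster 1 then shared 55 of its 207 cells, and those of clusters 2 and 3 shared 34 of 67 and 28 of 28.

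**Figure D5:**
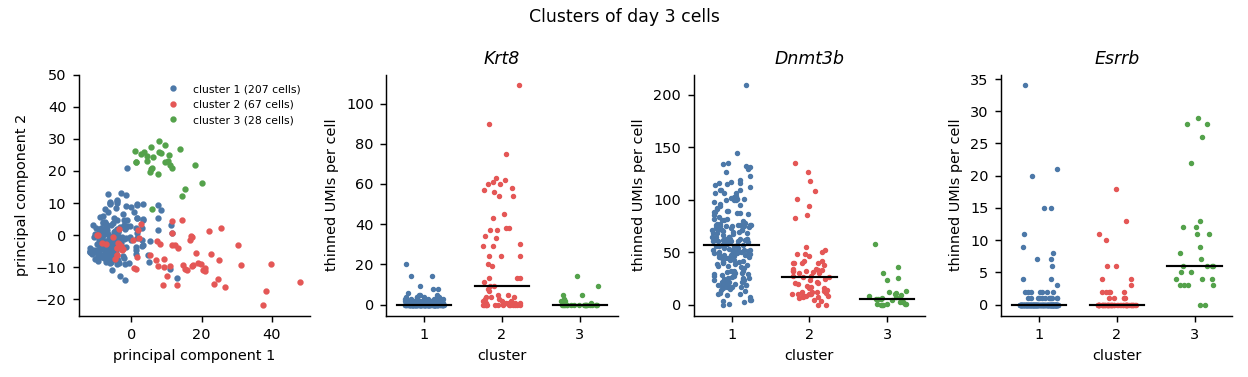
Day 3 cells by the first 2 principal components and by thinned UMIs of Krt8, Dnmt3b and Esrrb per cell, coloured by cluster, with black lines at the median of each cluster. Krt8 is high in part of cluster 2, and the naive-like cells (green) have the lowest Dnmt3b and the highest Esrrb medians.

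Xist was detected in 74.5% of thinned day 3 cells (69.2 to 79.3%), against 3.69% on day 0 and 90.2% on day 2. Its capture columns ranged from 365 to 951 CPM with a median of 453. The median cell held 46 Xist UMIs in cluster 1, 10 in cluster 2 and 2 in the naive-like cluster. The clustering did not use the allele of a transcript. The median share of the minor allele among X-linked UMIs other than Xist was 38.5%, 40.0% and 44.8% in clusters 1, 2 and 3. Such a share cannot pass 50% and lies below it by sampling even with equal expression. Autosomal genes had 48.9%, 48.6% and 49.0%. These rest on 4938952 UMIs with a known allele, against 130385 X-linked ones, so that the shares are not matched in depth. An X-linked share below 20% was found in 25 cells of cluster 1, 7 of cluster 2 and none of cluster 3. Of 5855 Xist UMIs with a known allele, 74.7% were from B6 (73.6 to 75.8%), a share that cells with many Xist UMIs weigh most. By cell, among those with at least 5 such UMIs and no more than 20% of them from the other allele, 74 cells of cluster 1 were B6 and 42 Cast, 12 and 15 of cluster 2, and 0 and 4 of the naive-like cluster. The authors did not see the higher B6 level of Xist in bulk RNA collected in parallel. They propose a possible detection bias of the single-cell protocol, which was not tested here. In bulk Xist did not pass the test between days 2 and 3 (log2 -0.01, SE 0.25, edgeR adjusted p = 0.99), with 198, 128 and 233 CPM and then 153, 170 and 233.

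Variation between cells was ranked by the squared coefficient of variation in excess of counting noise among 9803 genes. The 20 highest were Nfkbiz, Gm43813, Ms4a10, Dazl, Gpr143, Acta2, Mlana, Ankrd1, Zfp810, Ccdc189, Hspa1b, Foxr2, Nr5a2, Zfp651, Patl2, S100a13, Ephx1, 1700013H16Rik, Hspb2 and Crtc3. Ranked genes had a mean of at least 0.25 thinned UMIs and were detected in at least 5% of thinned cells. The measure is high by its form for genes seen in few cells. Those at its top were each detected in between 5.96% and 15.6% of thinned cells. Dazl, an RNA-binding protein of germ cells, had 34.4% of its UMIs in 1 cell. Among common genes, Krt18 had a Fano factor (variance over mean, 1 for counting noise) of 82.7 on day 3, 7.43 on day 2 and 68.8 on day 4, and Tagln 41.4, 6.59 and 22.2. Car4, with 13.6, 8.27 and 15.9, Enpp2, with 12.2, 10.1 and 7.73, and Fgf5, with 12.2, 9.80 and 13.9, varied less and moved less between days. These values were not adjusted for the level of a gene.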

How the data were processed

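Single cells of TX1072 were captured at 400 sites per day and their mRNA 3′ ends counted by UMI. The deposited single-cell tables hold raw UMI counts per gene and site, which the authors made with STAR 2.5.2b on a mm10 genome masked at B6/Cast variants and the Drop-seq pipeline. Allele-specific, spliced and unspliced UMI counts were deposited as separate tables. Bulk RNA was sequenced as stranded total RNA, and the authors deposited read counts per gene from uniquely aligned reads. Reads from near-identical gene copies (Zscan4 genes, keratin pseudogenes) are therefore uncertain.

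From these, sites with at least 40000 UMIs outside the 75 ERCC rows were taken as cells, which also removed those rows from all totals. No doublet caller was run. Of the 302 cells, 7 stood on sites marked as holding several cells and were kept, and an alternative used the 257 cells on a stricter list of kept sites. CPM were computed from summed UMIs. A fold of 2 was read only for genes of at least 10 CPM on either day, and genes that reached it on the higher day alone are named or counted apart. Shares, Fano factors and rho used cells thinned to 40000 UMIs. Cells were clustered with scanpy 1.11.5 on 1000 variable genes, 20 principal components and 15 neighbours at a resolution of 0.5. No test was made over cells.

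Bulk counts of all 15 libraries were fitted in 1 model with edgeR 4.0.16 (quasi-likelihood test, TMM) after a filter on low counts, with Benjamini-Hochberg adjusted p of 0.05. The steps were tested on simulated data, in which 66% of genes changed by 2-fold and 87% of those changed by 4-fold were recovered for day 3 against day 2 among 18871 genes. Replicate numbers pair the libraries, since each replicate was differentiated on its own date for all days. Deviations from the day means correlated with a median of 0.126 over 30 pairs of the same number and -0.0678 over the 60 others. Alternatives were DESeq2 1.42.0, no filter, the replicate as a block, each replicate left out, no thinning, kept sites only, a higher minimum of UMIs and a cluster resolution of 1.0.

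The cells, gene lists and markers were chosen with earlier results of these data known. Genes were named by rule: the markers, the most abundant genes of each list and those behind counts of 5 or fewer, the 20 most variable genes, the 10 with the clearest peak and trough on day 3, the 10 highest and 5 lowest rho and the 5 largest changes in each direction in bulk. Other list genes were named after their values were seen, and a few genes that the rule names are not reported here. Promoter windows came from RefSeq (GRCm38.p6).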

Additional observations from a re-analysis of the deposited data

Results flagged for a closer look

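Of 100 sets of values over the 10 capture columns of day 3, 12 held a column whose gap to its nearest neighbour was large against the whole range. Chance would mark about 1 in 20 such sets if the values were normally distributed. Sums over few cells of genes that vary widely need not be, so that the number expected here is not known. The columns belong to one culture and chip, and the cause of these differences was not tested.

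Column 4 was the highest for Tpm1 (1493 CPM, the other columns 650 to 1092), Nes (122.6 CPM, others 49.4 to 86.7) and Ascl2 (65.95 CPM, others 10.8 to 40.2), and the lowest for the replication helicase gene Mcm6 (306 CPM, others 392 to 444). Column 6 was the highest for Xist (950.5 CPM, others 365 to 657), Fgf5 (273 CPM, others 115 to 193) and Trh (96.2 CPM, others 23.5 to 59.3). Column 1 was the highest for Krt7 (102.6 CPM, others 6.69 to 51.5) and Col4a1 (78.84 CPM, others 22.0 to 43.0). The stress gene Ddit3 was at 96.08 CPM in column 2 (others 5.29 to 36.9), Fst at 96.12 CPM in column 3 (others 12.7 to 53.7) and Tdgf1, a Nodal co-receptor, at 779.2 CPM in column 8 (others 371 to 563).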

How the results depend on the processing

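In bulk, all alternatives were run by gene only for Dnmt3b, Car4, Enpp2, Krt8, Krt18, Tagln, Tpm1, Fgf5, Lefty1, Xist, Nanog and T. Other list genes and those named by rule were compared only with and without the replicate as a block. No result of the former genes that passed its test changed direction. Among those that did not pass, the log2 difference of Xist between days 2 and 3 (-0.01) was 0.0043 with DESeq2, 0.0046 with DESeq2 size factors, 0.030 with the block and between -0.16 and 0.16 with a replicate left out, and that of Lefty1 went from -0.011 without replicate 3 to 0.49 without replicate 1 between days 2 and 3, and from -0.019 to 0.67 between days 3 and 4. The numbers of bulk genes moved when a replicate was left out, to between 1319 and 1945 that rose and 1271 and 1893 that fell from day 2 to day 3, and to between 1640 and 2091 that rose and 996 and 1500 that fell from day 3 to day 4. At a resolution of 1.0 there were 7 clusters in place of 3. With the replicate block, 2917 genes rose and 2753 fell from day 2 to day 3, and the calls of Fgf5 (adjusted p = 0.0021, against 0.053 without the block) and Car4 (0.032 against 0.084) between days 4 and 3 were gained. Of the list genes and those named by rule, 336, 334 and 337 were compared with and without the block for day 3 against 2, 4 against 3 and 3 against 0. None lost a call or turned, and 13, 19 and 7 gained one. Further genes named in the text that gained one between days 2 and 3 were Aurka, Aurkb, Foxa2, Grhl3, Top2a, Trh and Ube2c. Between days 3 and 4 these were Ctgf, Cyr61, Smad3, Tet1, Thbs1, Top2a and Trh, and between days 0 and 3 Nkd1. Fgf5 also passed with DESeq2 (0.043), without the filter (0.0026) and without replicate 1 (0.019), and Car4 without replicate 2 (0.015). Between days 2 and 3 Enpp2 was lost without replicate 3 (0.083), and so was Nanog between days 3 and 4 (0.062). Without thinning, Tagln was detected in 71.5% of cells, and Fano factors were higher (Krt18 252, Krt8 126, Tagln 123, Dnmt3b 78.6). Shares of unspliced UMIs in kept cells and without each capture column were added after seeing the data. Depth limits statements on genes such as T, which had 123 UMIs in all day 3 cells.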

Other observations

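Some genes had their highest single-cell level on day 3. Tiparp, a mono-ADP-ribosyltransferase, was at 191 CPM on day 3 and at most 122 on any other day, Slc27a2, a fatty acid transporter, at 107 CPM and at most 50.1, and Syt11, a synaptotagmin, at 90.4 and at most 40.0. Dusp4 (54.6 CPM, at most 30.3), Magi1, Rcor3, Tnnc2 and Msx1 had the same order. Phlda2, an imprinted gene of the placenta, was at 86.6 CPM against at most 32.6, but 1 cell held 22.2% of its UMIs and its capture columns ranged from 37.0 to 305 CPM. Each day is 1 culture, so these orders have no replicate check in the single cells. In bulk, Tiparp, Slc27a2, Syt11, Dusp4, Magi1, Tnnc2 and Phlda2 rose from day 2 to day 3 and fell from day 3 to day 4 (edgeR), whereas Rcor3 and Msx1 passed neither test. Msx1 had a log2 difference of 0.25 to day 3 (edgeR adjusted p = 0.74) and of 0.16 from day 3 to day 4 (edgeR adjusted p = 0.84), so that its day 3 peak was not seen in bulk.

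Others had their lowest level on day 3. Dzip3 was at 10.1 CPM and at least 23.3 on any other day, Arhgdib at 15.1 and at least 30.5, and Mfge8, a secreted glycoprotein, at 48.1 and at least 77.1. Cltb, Abhd6, 2310039H08Rik, Piga, Mfn1, Rab2b and Sh3bp1 followed. In bulk, Mfge8, Cltb and Abhd6 fell from day 2 to day 3 and rose from day 3 to day 4, Dzip3, Arhgdib, 2310039H08Rik and Rab2b passed the first test alone, and Piga, Mfn1 and Sh3bp1 passed neither.

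Unspliced UMIs made up 12.1% of all spliced and unspliced UMIs on day 3. The share was 0.0885% for Tagln, 1.77% for Krt8, 4.51% for Krt18, 3.09% for Dnmt3b, 8.70% for Dnmt3a and 19.3% for Esrrb. Of 10765 genes with at least 100 UMIs that the tables share, 154 are listed at 0 in both the spliced and the unspliced table, T among them, and no share is given for these.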
